A study of Mus musculus with 147 samples.

Results

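The cells described here are single cells of E7.5 mouse embryos that held transcripts of Dppa3 and Prdm1, a pair of genes used to recognise the first germ cells. They were chosen from the deposited UMI counts. A UMI (unique molecular identifier) is a tag that marks a single transcript molecule, and CPM is the number of UMIs of a gene per 1000000 UMIs of the cell. A cell was included with Dppa3 of at least 50 CPM, at least 1 Prdm1 UMI and Apoa1, a gene of the visceral endoderm, below 500 CPM. Of 895 E7.5 cells that passed the filter on cells, 12.2% met these conditions (31, 39, 11 and 28 cells of 4 biological replicates), and the whole series held 13032 cells. They are called Dppa3-positive cells, and were set beside 584 Dppa3-low cells of the same age, which had Dppa3 below 50 CPM and Apoa1 below 500 CPM. Since Dppa3, Prdm1 and Apoa1 chose the cells, their values are given as a description and were not tested.

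Primordial germ cells (PGCs), the founders of sperm and eggs, arise in the mouse from a few cells of the proximal epiblast at the base of the allantois. BMP signals from the extraembryonic ectoderm and WNT signals make these cells competent. The transcription factors Prdm1 (Blimp1), Prdm14 and Tfap2c then act together to turn off the mesodermal program of the neighbouring cells, to bring back pluripotency genes and to begin the removal of DNA methylation. Dppa3 (Stella) is a maternal and germ cell factor that protects DNA methylation in the zygote and is widely used as a marker of PGCs that have been specified.

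The embryos came from C57BL/6 females crossed with males that carried the Blimp1-mVenus and Stella-ECFP reporter transgenes (BVSC). Whether transcripts of the transgenes add to the UMIs of Prdm1 and Dppa3 cannot be told from the counts. All groups used here were wild type, none was treated, and the cell names give no sex at E7.5. The names place the E7.5 cells in 4 biological replicates, R1 to R4, each of which is called a pool because cells of several embryos were put together, and in gates called EPIrandom (R1 and R2) and FACSrandom (all 4 pools). The labels of the libraries themselves name no group, so that the pools are known from the names of the cells.

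The Dppa3-positive cells were 6.51%, 14.1%, 11.6% and 59.6% of the filtered cells of R1, R2, R3 and R4. Within a pool they were 6.16% of EPIrandom and 7.07% of FACSrandom cells in R1, and 22.9% of EPIrandom and 12.2% of FACSrandom cells in R2. Between 65940 and 719956 UMIs were counted per Dppa3-positive cell, with medians of 245858 in R1, 323618 in R2, 448739 in R3 and 370652 in R4. The Dppa3-low cells, with medians of 244585 in R1 and 379198 in R2, were of similar depth. They came from R1 (361 cells) and R2 (223 cells), and R3 and R4 held none, because every other cell there had Apoa1 of at least 500 CPM. The comparison of both classes therefore rests on R1 and R2. The 10 libraries of E7.5 drew on 96 cell barcodes, each found in more than 1 library, so a barcode names a cell only together with its library. A single library held 38 of the Dppa3-positive cells, from R3 and R4.

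Dppa3 ranged widely among the Dppa3-positive cells, from 50.7 to 1425 CPM with a median of 319 CPM. The median was 190 CPM in R1, 319 CPM in R2, 138.1 CPM in R3 and 594 CPM in R4. Near the threshold, 22 cells lay between 50 and 75 CPM, and 59 further cells with 25 to 50 CPM met the other conditions. The pools also differed below the threshold. Among the Dppa3-low cells a Dppa3 UMI was found in 42.7% in R1 and 86.1% in R2, with medians of 0 and 13.3 CPM. Prdm1 had a median of 119.3 CPM, and 2 of the cells held a single Prdm1 UMI. Another 12 cells met the conditions on Dppa3 and Apoa1 without a Prdm1 UMI. The third condition separated the pools. Apoa1 had a median of 160 CPM in R1 and 78.1 CPM in R2, but of 432 CPM in R3 and 441 CPM in R4, and no filtered cell of R3 or R4 had less than 337 CPM or 325 CPM. The limit of 500 CPM thus ran through the main body of cells in these pools, where a further 83 and 19 cells with Dppa3 of at least 50 CPM lay above it.

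The label of the cells as candidate germ cells was checked with markers that the conditions did not use. Cells and markers were chosen with earlier results of these data known, so the check is not independent of the data. Tfap2c, the AP-2 factor of PGC specification, had a median of 188 CPM in the Dppa3-positive cells and of 4.42 CPM in the Dppa3-low cells. Prdm14, which restores pluripotency genes in PGCs, had a median of 32.7 CPM against 0 CPM. Because a UMI is found more readily in a deep cell, each cell was also thinned to 50000 UMIs, which left out 22 Dppa3-low cells and no Dppa3-positive cell. A Tfap2c UMI was then found in 85.9% ± 15.1 of the Dppa3-positive cells (mean of pools ± SD, n = 4) and in 34.8% ± 6.52 of the Dppa3-low cells (n = 2). For Prdm14 these shares were 53.8% ± 24.8 and 12.9% ± 6.36, for Nanos3 71.8% ± 19.6 and 13.6% ± 6.07, for Dnd1 81.3% ± 14.4 and 52.2% ± 13.8, and for Kit 85.5% ± 12.1 and 25.2% ± 1.31. Without thinning, Prdm14 was found in 85.5% of the Dppa3-positive and 39.9% of the Dppa3-low cells, Tfap2c in 96.5% and 68.9%, and Dnd1 in 96.1% and 84.1%. A UMI of each marker was thus also found in part of the Dppa3-low cells, and whether it came from free RNA was not tested.

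The cells were not uniform in these markers. Counting for each cell how many of Tfap2c, Prdm14, Nanos3, Dnd1 and Kit reached 20 CPM, 71 of the Dppa3-positive cells (65.1%, exact binomial 95% confidence interval 55.42 to 74.01) had 4 or 5 of these 5 markers, and 15 had none or 1. Cells with 4 or 5 markers made up 19 of 31 in R1, 22 of 39 in R2, 5 of 11 in R3 and 25 of 28 in R4. Among the Dppa3-low cells 10 of 584 (1.71%, 0.824 to 3.13) had as many. All 12 cells with Dppa3 but no Prdm1 UMI had at most 2 markers (0%, upper limit 26.5). The gates differed from pool to pool, with 13 of 18 EPIrandom and 6 of 13 FACSrandom cells in R1, but 2 of 11 EPIrandom and 20 of 28 FACSrandom cells in R2. These intervals cover counting error only. A Dppa3-positive cell was therefore not in every case a cell with the other germ cell markers.

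**Figure D1:**
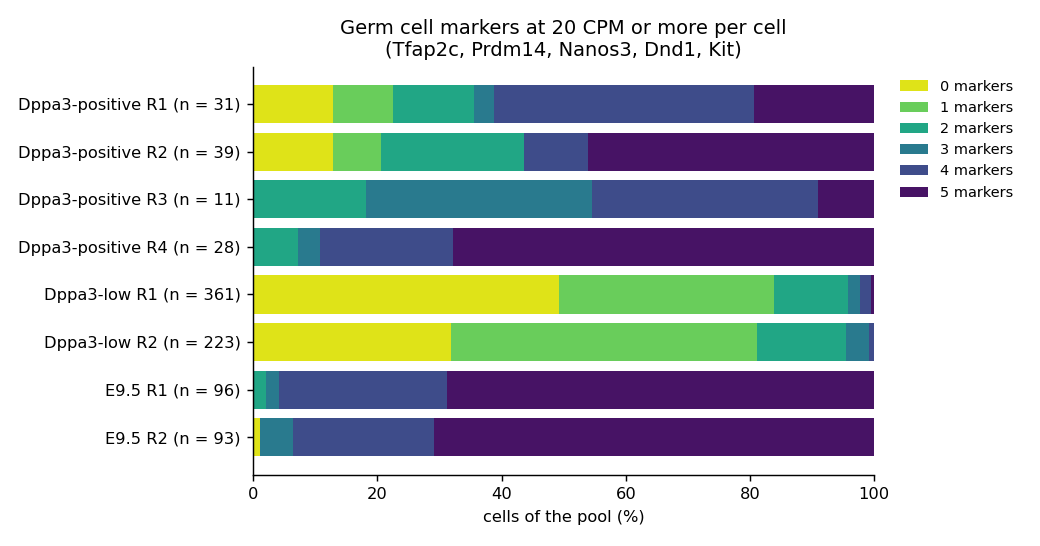
Share of the cells of each pool (percent, horizontal axis) by the number of 5 germ cell markers (Tfap2c, Prdm14, Nanos3, Dnd1, Kit) at 20 CPM or more, for Dppa3-positive and Dppa3-low E7.5 cells and for E9.5 cells under the same 3 conditions. Of 28 Dppa3-positive cells in R4, 25 had 4 or 5 markers, against 5 of 11 in R3 and 10 of 584 Dppa3-low cells.

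Cells with few markers also differed in genes that the count did not use. The 38 cells with 0 to 3 markers had a median Dppa3 of 66.5 CPM, against 578 CPM in the 71 cells with 4 or 5 markers. Their median Dnmt3b, the de novo DNA methyltransferase of the epiblast, was 269 CPM against 30.7 CPM. Their median Ifitm3 (Fragilis), a membrane protein of early PGCs, was 227 CPM against 811 CPM, and their median Sox2 4.76 CPM against 106.2 CPM. These medians join cells of all pools, and the pools gave unequal shares to both kinds of cell (12, 17, 6 and 3 cells with few markers and 19, 22, 5 and 25 with many in R1 to R4). Within R1, R2 and R4 median Dnmt3b was 256, 304 and 160 CPM with few markers against 32.6, 24.9 and 31.5 CPM with many, and Ifitm3 and Sox2 were lower with few markers in each. The 11 cells of R3 did not show this, with median Dnmt3b of 296 and 365 CPM, Ifitm3 of 228 and 179 CPM and Sox2 of 19.2 and 22.9 CPM with few and many markers. Median T differed in opposite directions, at 174 CPM with few and 354 CPM with many markers in R1, but 268 and 133.04 CPM in R2 and 120.7 and 11.7 CPM in R4. Median Hand1 was 303 and 149 CPM in R1, 170 and 119.1 CPM in R2 and 4.44 and 24.5 CPM in R4.

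Within a pool the amount of Dppa3 went with these differences. Across the Dppa3-positive cells Spearman's rho between Dppa3 and Dnmt3b was -0.73 in R1 (n = 31), -0.77 in R2 (n = 39) and -0.63 in R4 (n = 28). For Uhrf1, the cofactor that brings Dnmt1 to replicated DNA, it was -0.69, -0.64 and -0.45. For Ifitm3 it was 0.72, 0.81 and 0.77, and for Tfap2c 0.57, 0.75 and 0.77. Among the other germ cell markers it was 0.66, 0.75 and 0.54 for Dnd1, 0.60, 0.69 and 0.28 for Kit, 0.40, 0.62 and 0.32 for Prdm14 and 0.16, 0.66 and 0.22 for Nanos3. Sox2 gave 0.15, 0.64 and 0.10, and Pou5f1 -0.17, 0.51 and 0.60, so that these genes did not follow Dppa3 in the same way in every pool. The points of each value share a pool and in part a library, Dppa3 was cut at 50 CPM by the choice of cells, and R3 held too few cells for a value.

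**Figure D2:**
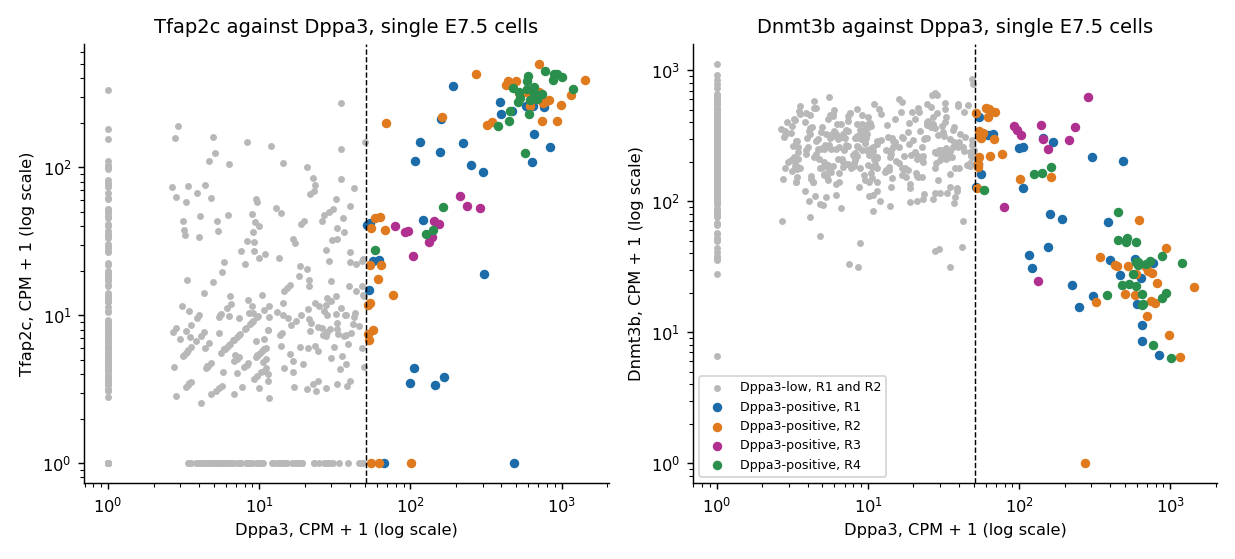
Tfap2c (left) and Dnmt3b (right) against Dppa3 in single E7.5 cells, as CPM + 1 on log scales; coloured points are the Dppa3-positive cells by pool, grey points the 584 Dppa3-low cells, and the dashed line is the threshold of 50 CPM. Cells of highest Dppa3 had high Tfap2c and low Dnmt3b, while cells near the threshold and those of R3 overlapped the grey points.

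The 11 cells of R3 stood apart from the other pools. Their summed Pou5f1 was 73.4 CPM, against 226 to 309 CPM in the other pools, and their Prdm14 10.1 CPM, against 41.8 to 65.2 CPM. Otx2, a gene of the epiblast and anterior endoderm, was at 287 CPM in R3 and at 9.75 to 25.2 CPM in the others. Sox17 and Foxa2, genes of the endoderm, were at 379 and 152 CPM, against 84.2 to 132.4 CPM and 3.33 to 23.8 CPM. The 13 other visceral endoderm markers, Ttr and Afp among them, summed to 3576 CPM in R3, against 1033, 677 and 1846 CPM in R1, R2 and R4. In the cells with Apoa1 of at least 500 CPM these markers summed to between 5607 and 9012 CPM. Afp alone stood at 292 CPM in R3 and at 21.1 to 49.1 CPM in the other pools. High Ttr and Apoa1, in contrast, were not particular to R3. The lowest Ttr and Apoa1 of any Dppa3-positive cell were 275 and 337 CPM in R3 and 243 and 325 CPM in R4, where most cells had 4 or 5 germ cell markers, and both pools share a library. The low Pou5f1 and Prdm14 and high Otx2, Sox17 and Foxa2 of R3 went against the germ cell label, and their part in other results was not tested; R3 did not enter the comparison with Dppa3-low cells.

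Genes of PGC specification were higher in the Dppa3-positive cells than in the Dppa3-low cells of the same pools. The UMIs of each class were summed per pool, and the sums of R1 and R2 were compared with edgeR's quasi-likelihood test with the pool as a block, at a Benjamini-Hochberg adjusted p of 0.05 over 16857 genes. Of all genes tested 3.08% (520) were higher and 1.85% (312) were lower, 4.94% in all, and the median log2 fold change was -0.06. Of 20 genes on a list of PGC specification genes, 18 were tested and 2 had been used to choose the cells. Of the 18, 12 were higher and none was lower, with a median log2 fold change of 1.82. The fit of 2 pools with a block left 1 residual degree of freedom. Without the pool as a block no gene passed the threshold in edgeR, with 1588 genes at an unadjusted p below 0.05, and DESeq2 with the block called 1456 genes higher and 1033 lower.

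Nanos3, an RNA-binding protein that keeps migrating PGCs alive, showed the largest rise among the more abundant genes. Its level was 38.02 CPM in R1, 88.05 in R2, 31.9 in R3 and 186 in R4 in the Dppa3-positive cells, and 4.10 and 5.36 CPM in the Dppa3-low cells of R1 and R2. All 4 pools lay above both Dppa3-low values, as was so for 8.21% of all genes tested, and the log2 fold change was 3.66 ± 0.30 (SE, edgeR adjusted p = 5.08e-06). Tfap2c stood at 98.7, 161, 40.9 and 267 CPM in R1 to R4, against 17.2 and 16.8 CPM, a log2 fold change of 2.92 ± 0.19 (edgeR adjusted p = 6.5e-07). Prdm14 stood at 65.2, 41.8, 10.1 and 62.3 CPM, against 3.38 and 6.76 CPM, a log2 fold change of 3.47 ± 0.38 (edgeR adjusted p = 7.99e-05). In Tfap2c and Prdm14, as in Nanos3, R3 was the lowest pool and still lay above the Dppa3-low pools.

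Receptors and surface proteins of PGCs belonged to the same group. Kit, the receptor for stem cell factor on which PGC survival depends, stood at 55.5, 101.2, 41.3 and 241 CPM in R1 to R4, against 13.4 and 9.14 CPM (log2 fold change 2.80 ± 0.30, edgeR adjusted p = 5.92e-05). Ifitm3 stood at 627, 496, 242 and 705 CPM, against 140.5 and 133.2 CPM (log2 fold change 2.06 ± 0.08, edgeR adjusted p = 1.74e-09). The groups did not overlap in either gene. Alpl, the tissue-nonspecific alkaline phosphatase by which PGCs have long been stained, stood at 222, 223, 53.1 and 364 CPM against 70.8 and 82.4 CPM (log2 fold change 1.57), so that R3 lay below the Dppa3-low cells. Pdpn, Ifitm1 and the Myc family gene Mycl were higher by 0.71, 0.61 and 1.14 on the log2 scale.

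The RNA-binding protein Dnd1, without which PGCs are lost, stood at 163, 124.5, 29.3 and 193 CPM against 17.8 and 25.2 CPM (log2 fold change 2.78 ± 0.20, edgeR adjusted p = 1.34e-06). Klf2, a pluripotency factor, rose by 3.08 ± 0.53 on the log2 scale from levels of 5.47 and 1.98 CPM. Rhox9, a homeobox gene of the X chromosome, rose most of the list, by 5.80 ± 0.44 on the log2 scale, from 0.665 and 0.562 CPM to 34.1, 32.7, 50.3 and 105.7 CPM; its paralog Rhox6 is nearly identical in sequence, and how reads were shared between them is uncertain. Rhox6 itself stood at 4.94, 5.51, 64.3 and 53.6 CPM against 2.99 and 0.526 CPM and did not pass the test (edgeR adjusted p = 0.283). Sall4 and Lin28a, both high in pluripotent cells in general, had log2 fold changes of -0.10 and -0.04. Cxcr4, the receptor that guides PGCs to the gonads, was at 4.197 to 40.2 CPM, against 11.5 and 16.96 CPM, and did not pass the test.

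**Figure D3:**
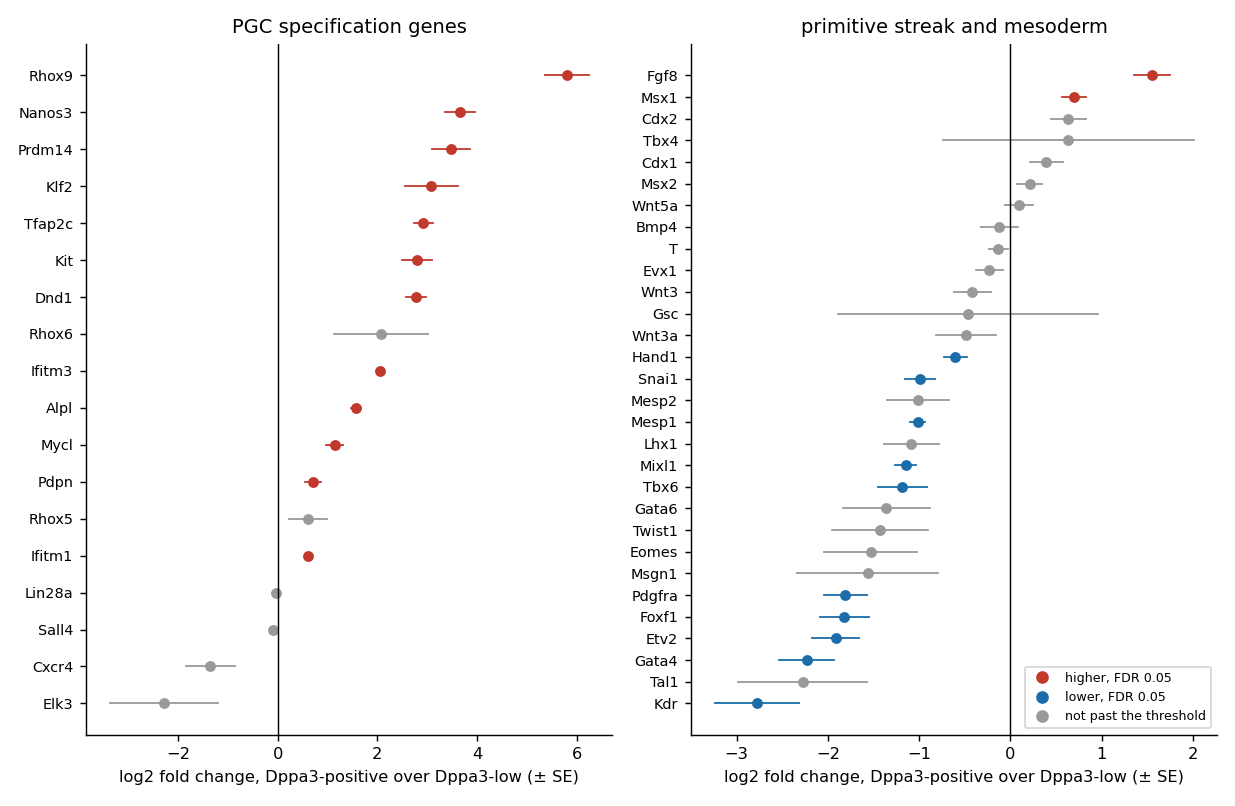
Log2 fold change (horizontal axis, ± SE) of Dppa3-positive over Dppa3-low cells in R1 and R2 for the tested genes of the lists of PGC specification (left) and of primitive streak and mesoderm (right); red and blue mark genes higher and lower past an adjusted p of 0.05. On the left 12 of 18 genes were higher and none lower, and on the right 2 of 30 were higher and 10 lower.

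The genes lie at scattered places in the genome (mm10, GENCODE M21): Tfap2c at chr2:172549593-172558622, Prdm14 at chr1:13113457-13127163, Nanos3 at chr8:84173731-84185217, Kit at chr5:75574916-75656722, Ifitm3 at chr7:141009586-141010770 and Dppa3 at chr6:122626410-122630272. Promoters, from 250 bases before to 50 after the start of the gene, were given by RefSeq (GRCm38.p6) for 8 of the 12 called genes. RefSeq and GENCODE can start a gene at different places, and the RefSeq promoter of Nanos3 lies within the span that GENCODE gives the gene. The promoters were searched for GCCNNNGGC, the palindromic site that AP-2 factors such as Tfap2c bind, which reads alike on both strands. It was found in 4 of the 8 (Nanos3, Kit, Alpl and Mycl), in 20.1% of the promoters of 393 genes called higher, in 24.1% of those of the genes tested and in 16.5% of all 27025 promoters. The promoters of Nanos3 and Kit, which hold a match each, and of Ifitm3, which holds none, are given 5' to 3' on the strand of the gene, with the match in capitals; they cover chr8:84176503-84176802 (minus strand), chr5:75574737-75575036 (plus strand) and chr7:141010695-141010994 (minus strand). A match is a match of letters and no evidence that a factor binds there.
Nanos3: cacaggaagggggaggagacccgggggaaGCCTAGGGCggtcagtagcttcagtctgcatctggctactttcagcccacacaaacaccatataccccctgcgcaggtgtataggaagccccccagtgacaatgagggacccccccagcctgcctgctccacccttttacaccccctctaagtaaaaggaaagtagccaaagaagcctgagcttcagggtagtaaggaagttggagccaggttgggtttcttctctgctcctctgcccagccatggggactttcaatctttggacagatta
Kit: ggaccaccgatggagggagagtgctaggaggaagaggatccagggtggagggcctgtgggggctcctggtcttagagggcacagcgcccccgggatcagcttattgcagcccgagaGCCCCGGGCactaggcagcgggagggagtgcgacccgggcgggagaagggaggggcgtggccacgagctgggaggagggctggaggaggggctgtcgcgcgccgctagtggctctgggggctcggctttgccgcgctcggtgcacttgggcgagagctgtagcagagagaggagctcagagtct
Ifitm3: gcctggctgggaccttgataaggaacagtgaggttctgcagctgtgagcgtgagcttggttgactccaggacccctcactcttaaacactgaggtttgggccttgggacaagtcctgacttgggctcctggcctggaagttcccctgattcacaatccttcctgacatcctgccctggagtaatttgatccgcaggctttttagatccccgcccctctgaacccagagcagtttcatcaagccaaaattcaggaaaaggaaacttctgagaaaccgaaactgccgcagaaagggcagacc

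Beyond the list, further genes were among the 10 largest rises. Mov10, an RNA helicase that restrains retrotransposons, stood at 65.2, 99.7, 76.3 and 164 CPM against 18.4 and 17.5 CPM (log2 fold change 2.20 ± 0.22, edgeR adjusted p = 3.15e-05). All 4 pools of Mov10 lay above the Dppa3-low cells. Ttyh1, Efcab10, Hmcn1 and Nmi had log2 fold changes of 2.55, 2.55, 2.41 and 2.31.

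Pluripotency genes were partly higher. Of 20 tested, 6 were higher and 2 were lower. Sox2, which epiblast cells lose when they turn to mesoderm, stood at 42.3, 52.5, 22.5 and 192 CPM in R1 to R4, against 7.17 and 5.10 CPM (log2 fold change 2.99 ± 0.32, edgeR adjusted p = 5.92e-05). Nanog stood at 67.8, 99.7, 29.7 and 103.9 CPM, against 41.7 and 64.6 CPM (log2 fold change 0.69 ± 0.16, edgeR adjusted p = 0.0205), and its groups overlapped. Esrrb, Klf2, Utf1 and Klf5 were the other genes that rose, by 3.53, 3.08, 1.99 and 1.604 on the log2 scale. Pou5f1 (Oct4), the core factor of pluripotency, stood at 245, 226, 73.4 and 309 CPM against 160 and 211 CPM and missed the threshold (log2 fold change 0.39 ± 0.11, edgeR adjusted p = 0.0631). Tdgf1, the coreceptor of Nodal, and Tbx3 fell by 2.13 and by 0.97 on the log2 scale.

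Of 14 tested genes of the primed epiblast, 4 were higher, among them Sox3, Epcam and Cdh1, and 2 were lower (Dnmt3b and Sox11). Sox3, a relative of Sox2, stood at 36.7, 28.6, 4.15 and 20.5 CPM against 4.25 and 4.90 CPM (log2 fold change 2.86 ± 0.37, edgeR adjusted p = 0.00033), so that R3 lay at the level of the Dppa3-low cells. The epithelial adhesion genes Epcam and Cdh1 rose by 0.98 and 0.59, and the mesenchymal genes Cdh11, Zeb2 and Cdh2 fell by 2.20, by 1.98 and by 1.03 on the log2 scale. Of the 16 genes of adhesion and migration tested, 6 rose and 5 fell. Otx2, Fgf5 and Pou3f1, further genes of the epiblast, had log2 fold changes of 0.45, -0.67 and 0.53 with adjusted p from 0.765 to 0.795 (edgeR).

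Genes of the primitive streak and mesoderm were mostly lower or did not pass the test. Most Dppa3-low cells held Hand1, and against the Hand1-low cells described below no gene of this list was lower. Of 30 tested, 10 were lower, 2 were higher and 18 did not pass, with a median log2 fold change of -1.0003. Mesp1, the factor of nascent mesoderm, stood at 106.02, 203, 20.3 and 13.4 CPM in R1 to R4, against 225 and 408 CPM (log2 fold change -1.02 ± 0.08, edgeR adjusted p = 4.62e-06). All 4 pools lay below both Dppa3-low values, as was so for 11.6% of all genes tested. Mixl1, Snai1 and Tbx6 had log2 fold changes of -1.15, -0.99 and -1.18, and Kdr, Gata4, Etv2, Foxf1 and Pdgfra, genes of vascular, cardiac and extraembryonic mesoderm, of -2.78, -2.23, -1.92, -1.82 and -1.81. Gata4 stood at 85.5 CPM in R3, above both Dppa3-low values of 42.8 and 71.6 CPM.

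T (Brachyury), which mesoderm and nascent PGCs share, did not follow this pattern. It stood at 285, 232, 31.9 and 62.2 CPM in the Dppa3-positive cells and at 268 and 311 CPM in the Dppa3-low cells, with a log2 fold change of -0.13 ± 0.10 in R1 and R2 (edgeR adjusted p = 0.589). Hand1, a gene of lateral and extraembryonic mesoderm, stood at 281, 187, 46.6 and 39.7 CPM against 332 and 379 CPM (log2 fold change -0.60 ± 0.13, edgeR adjusted p = 0.0126). In both genes R3 and R4 were far below R1 and R2. Fgf8 and the BMP target Msx1 were higher, with log2 fold changes of 1.55 ± 0.20 and 0.70 ± 0.13 (edgeR adjusted p = 0.000261 and 0.00451). Among 7 anterior Hox genes Hoxb1, which Prdm1 is known to repress in PGCs, was lower, at 73.6, 56.2, 1.31 and 0.211 CPM against 165 and 138.97 CPM (log2 fold change -1.20 ± 0.12, edgeR adjusted p = 4.24e-05). The other 6 did not pass.

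Dnmt3b and Uhrf1, a part of the machinery of DNA methylation, were lower. Dnmt3b stood at 144.4, 178, 320 and 48.6 CPM in R1 to R4, against 262 and 269 CPM (log2 fold change -0.69 ± 0.09, edgeR adjusted p = 0.000301). Uhrf1 stood at 154, 163, 120 and 63.6 CPM, against 235 and 259 CPM (log2 fold change -0.61 ± 0.09, edgeR adjusted p = 0.000639). R3 was above the Dppa3-low cells in Dnmt3b, and all 4 pools were below them in Uhrf1. Ehmt1 (GLP), which with Ehmt2 (G9a) places H3K9 dimethylation, fell by 0.48 on the log2 scale. The other 12 of 15 genes tested did not pass, among them Dnmt1, Dnmt3a, Ehmt2 and Tet1 with log2 fold changes of -0.09, -0.27, -0.18 and 0.26. With the Dppa3-positive cells of R1 and R2 limited to those with Dppa3 of at least 100 CPM, the log2 fold change of Dnmt3b was -1.94.

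Among genes of the BMP pathway, the targets Id4, Id2 and Id1 were higher, by 1.69, 0.80 and 0.49 on the log2 scale, and the signal transducer Smad1 was lower (log2 fold change -0.94). Id4 stood at 87.1, 16.2, 1.31 and 13.5 CPM in R1 to R4, against 18.9 and 7.59 CPM in the Dppa3-low cells. In Id4, Id2 and Id1 R3 lay below both Dppa3-low values. The other 15 of 19 did not pass, and the ligand Bmp4 and Smad5 had log2 fold changes of -0.12 and 0.04. Of 19 genes of Nodal and WNT signaling, 5 were lower and none was higher. These were the Nodal target Lefty2 (log2 fold change -2.58), Tdgf1, and Sp5, Dkk1 and Lef1, which WNT activates (log2 fold changes of -0.99, -0.78 and -0.54). The ligand Nodal itself went the other way, with a log2 fold change of 1.46, and did not pass. Wnt3 and Axin2 had log2 fold changes of -0.42 and 0.13 and did not pass. Of 28 cell cycle genes, 3 were higher and 4 lower, with Ccnd1 at -0.66 and Mki67 at 0.04 (log2 fold change).

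Later germ cell genes had not changed past the threshold. Of 19 tested, 0 passed in edgeR, 1 had an unadjusted p below 0.05, and Ddx4 and Dazl were at 5.43 to 12.2 CPM and 0.494 to 3.48 CPM in the Dppa3-positive cells. Of 8 genes that the study named for specification PGCs, Meios3 was not found under that name and 7 were tested. Of these, 4 were higher, among them Elf3, Slpi and Irf1 with log2 fold changes of 1.80, 1.40 and 1.28, and Rbm47, Porcn and Krt18 had values of 0.87, 0.87 and -0.01 and did not pass. The study chose these genes on these cells, so their direction is not independent evidence. Of the markers of other tissues, 2 were called. None of 13 visceral endoderm, 7 extraembryonic ectoderm and 4 neural ectoderm markers passed in edgeR, with 6, 0 and 0 at an unadjusted p below 0.05, and the median log2 fold change of the visceral endoderm markers was 0.84. Sox17 was the called gene among 7 definitive endoderm markers (log2 fold change 1.57 ± 0.35, edgeR adjusted p = 0.0172), at 105.4 and 84.2 CPM in R1 and R2 against 78.999 and 13.2 CPM, and Pecam1, an adhesion molecule of endothelium and of PGCs, among 8 of blood and endothelium (log2 fold change 2.38). The summed visceral endoderm markers stood at 1033 and 677 CPM in the Dppa3-positive and at 1153 and 212 CPM in the Dppa3-low cells of R1 and R2, and their part in the value of Sox17 was not tested.

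The Dppa3-positive cells of R3 and R4 did not enter the test and can be set beside it. The Dppa3-low values used here are those of R1 and R2 that had entered the calls, so the shares below are not independent of the calls. Pool and class cannot be told apart in R3 and R4, which held no Dppa3-low cells. Of the 520 genes called higher in R1 and R2, 470 (90.4%) were above both Dppa3-low values in R4 and 321 (61.7%) in R3, while of all genes tested 37.8% and 37.3% were. Of the 312 called lower, 294 (94.2%) were below both values in R4 and 231 (74.04%) in R3, while of all genes tested 44.5% and 47.3% were. R4 thus shared the direction of R1 and R2 more often than R3. Of the 12 called PGC genes, 12 lay above both values in R4 and 10 in R3.

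**Figure D4:**
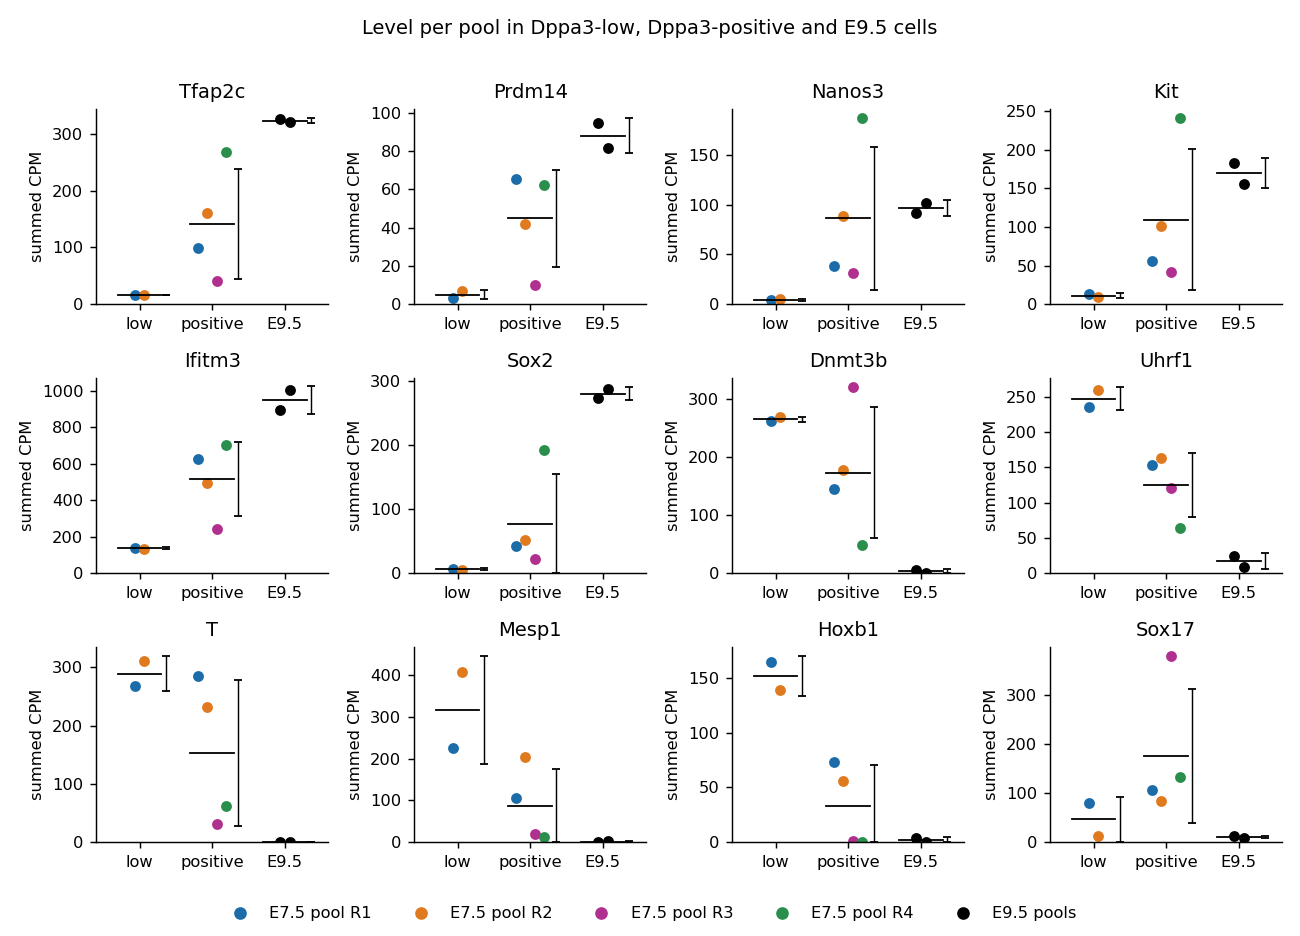
Summed CPM (vertical axis) of 12 genes in each pool for Dppa3-low cells (R1, R2), Dppa3-positive cells (R1 to R4) and cells under the same conditions at E9.5; horizontal lines are means, and bars beside them are SD over pools, cut at 0. Tfap2c rose from 17.2 and 16.8 CPM to between 40.9 and 267 CPM, and R3 stood apart in Dnmt3b (320 CPM) and Sox17 (379 CPM).

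Most Dppa3-low cells (517 of 584) had Hand1 of at least 50 CPM, a mark of lateral and extraembryonic mesoderm, and 67 had less. Both kinds were compared with the Dppa3-positive cells in 1 fit, in which Hand1 was not tested. Against the Hand1-positive cells 0.196% of 14805 genes were called, 0.189% higher and 0.00675% lower (28 and 1, which was Ppic). The 28 held 7 of 18 PGC specification genes, Rhox9, Nanos3, Prdm14, Kit, Dnd1, Ifitm3 and Ifitm1, and also Sox2, Klf5 and Epcam. Against the Hand1-low cells 0.932% were called, 0.621% higher and 0.311% lower (92 and 46), with 9 of 18 PGC specification genes higher, Tfap2c among them (log2 fold change 3.84). Dnmt3b was lower there by 1.14 on the log2 scale. Of 29 primitive streak and mesoderm genes tested there, 3 were higher (Cdx2, Msx1 and Msx2) and 0 lower, with a median log2 fold change of 0.24. Mesp1 and Foxf1 had log2 fold changes of 0.12 and 1.06, Kdr and Gata4 of -1.48 and -1.34, and Hoxb1 of 0.15, and none passed. Against the Hand1-positive cells 0 of the 29 were called, with a median of -1.04. The comparisons share the Dppa3-positive cells, and the difference between them was not tested. DESeq2 called 411 and 887 genes, and without the block edgeR called 0 and 5, with 941 and 1695 genes at an unadjusted p below 0.05.

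The same 3 conditions were met by 4.79% of 731 filtered cells at E6.5, 53.9% of 191 at E8.5, 99.5% of 190 at E9.5 and 92.8% of 304 at E10.5. At least 10 such cells were found in 1 pool at E6.5, in 2 at E8.5, in 2 at E9.5 and in 3 at E10.5. The study sorted its germ cells from E8.5 on by the Blimp1-mVenus and Stella-ECFP reporters, which follow Prdm1 and Dppa3. Age and sorting therefore cannot be told apart in the shares and levels from E8.5 on. At E10.5 the study also kept male embryos, chosen by PCR for Sry, while the E7.5 names give no sex. Tfap2c was at 190 CPM at E6.5, 141.9 ± 96.7 CPM at E7.5 (mean ± SD, n = 4), 287 ± 37.2 CPM at E8.5 (n = 2) and 323 ± 4.57 CPM at E9.5 (n = 2). The spread between the E7.5 pools, from 40.9 to 267 CPM, covered most of this range. Dnmt3b was at 173 ± 112.7 CPM at E7.5 (n = 4), 14.98 ± 19.1 CPM at E8.5 (n = 2) and 3.62 ± 3.67 CPM at E9.5 (n = 2), and Uhrf1 at 125.1 ± 44.97, 42.2 ± 28.6 and 17.3 ± 11.1 CPM. Rhox9 was at 55.7 ± 34.3 CPM at E7.5 (n = 4), 117.98 ± 17.9 CPM at E8.5 (n = 2), 368 ± 13.8 CPM at E9.5 (n = 2) and 639 ± 37.6 CPM at E10.5 (n = 3).

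**Figure D5:**
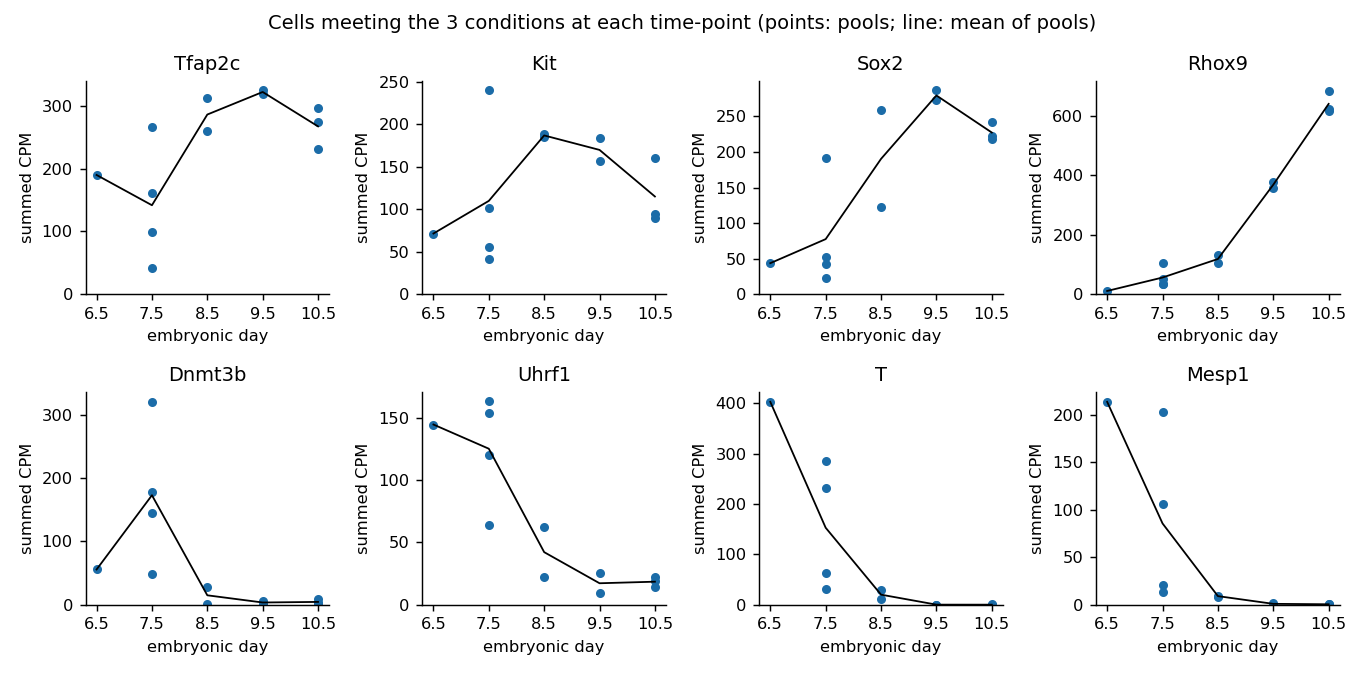
Summed CPM (vertical axis) of 8 genes against embryonic day in cells that met the 3 conditions; points are pools of at least 10 cells and the line joins their means. The E7.5 points were widely spread, from 48.6 to 320 CPM in Dnmt3b and from 13.4 to 203 CPM in Mesp1, and pools of E9.5 and E10.5 lay close together. Cells of E9.5 and E10.5 had been sorted by the reporters.

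The cells of E7.5 were compared with those of E9.5, when PGCs migrate, over 4 and 2 pools with no block. The E9.5 cells had been sorted by the reporters of Prdm1 and Dppa3. Of them 94.7% had 4 or 5 of the 5 germ cell markers, against 65.1% of the E7.5 cells. Age cannot be told apart from the sorting and from this unequal share in the differences below. Of 14699 genes 2.33% were called, 1.48% higher (218) and 0.85% lower at E7.5. Of 30 primitive streak and mesoderm genes 1, T, was called, higher at E7.5, and 20 had an unadjusted p below 0.05. T was at 285, 232, 31.9 and 62.2 CPM in R1 to R4 and at 0.153 and 0.423 CPM at E9.5 (log2 fold change 8.96 ± 1.31, edgeR adjusted p = 0.0247). Among genes whose average log2 CPM reached 5, Sp5, Cyp26a1, Fgfbp1 and Ctsh completed the 5 largest rises, at 35.5 to 132.5, 15.4 to 502, 8.39 to 180 and 39.2 to 353 CPM, against at most 0.429 CPM in either E9.5 pool, and R3 held the highest value of each (132.5, 502, 180 and 353 CPM). Dnmt3b and Uhrf1 were higher at E7.5 by 5.49 ± 0.99 and 2.78 ± 0.52 on the log2 scale, and the BMP target Id1 by 2.54 ± 0.34 (edgeR adjusted p = 0.0342, 0.0381 and 0.019).

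Of 20 pluripotency genes 3 were higher at E9.5 and none at E7.5, and of 18 PGC specification genes 2 were higher at E9.5 and 1 at E7.5. Rhox9 was lower at E7.5 by 2.83 on the log2 scale, Klf2 by 2.14, Dppa2 by 4.60 and Zfp42 (Rex1) by 3.32. The Polycomb protein Phf19 was at 1.48 to 17.8 CPM at E7.5 and at 115.1 and 98.7 CPM at E9.5 (log2 fold change -3.96 ± 0.72, edgeR adjusted p = 0.0347), and Fam221a differed by -3.33. Plac9b, Plac9a and Gm9780, the others of the 5 largest falls above that average, had log2 fold changes of -3.39, -3.36 and -3.36 and may share reads as copies of each other. Tfap2c, Prdm14, Nanos3, Dnd1 and Kit were not among the 3 called PGC specification genes (Mycl, Rhox9 and Klf2). This does not show that they were alike at both ages. In simulated data for this comparison only 4.21% of 2-fold and 38.2% of 4-fold changes were called. Visceral endoderm markers moved with this comparison: 5 of 13 were higher at E7.5, and Ttr was at 156, 86.6, 379 and 379 CPM against 3.58 and 0.987 CPM; their part in the other differences was not tested. The count depended on single pools, with 284 genes called without R1 of E7.5, 51 without R2, 955 without R3 and 641 without R4, and 0 in edgeR without either E9.5 pool (2143 and 1541 at an unadjusted p below 0.05). DESeq2 over all pools called 2239.

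Both Y-linked transcripts and Xist were found among the cells. The 4 Y-linked genes Ddx3y, Eif2s3y, Uty and Kdm5d together reached 50 CPM in 28 of 31, 24 of 39, 9 of 11 and 14 of 28 Dppa3-positive cells of R1 to R4, and in 85.9% and 52.9% of the Dppa3-low cells of R1 and R2. Xist, the RNA of the inactive X chromosome, reached 20 CPM in 2, 13, 5 and 11 Dppa3-positive cells. In R3 some cells must have passed both limits, so these limits do not sort single cells by sex. R1 held the largest share of cells with Y-linked transcripts in both classes (90.3% and 85.9%). None of the Y-linked genes passed the test between the classes in edgeR, with 1 at an unadjusted p below 0.05.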

How the data were processed

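Single E7.5 cells were picked with a mouth pipette and sequenced with a modified STRT-seq. The authors used UMI-tools 1.0.0 for barcodes, seqtk 1.3 for trimming, STAR 2.7.1a for alignment to mm10 and featureCounts (subread 1.6.4) to assign reads to genes. CASAVA 1.8 is named in the submitters' processing notes. The deposited values are UMI counts per gene and cell, without normalization. Each cell's sum equalled the number of transcripts in the authors' table of cells.

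Cells with more than 2000 genes and 10000 to 1000000 UMIs were kept, and 109 of these 895 E7.5 cells formed the Dppa3-positive class. No doublet caller was run, since cells were picked singly. The cells and gene lists were chosen with earlier results of these data known. UMIs were summed per pool and class over at least 10 cells and compared with edgeR's quasi-likelihood test (TMM, filterByExpr; edgeR 4.0.16, limma 3.58.1, R 4.3.3). The sums of the Dppa3-positive cells held 4574719 to 13424727 UMIs, and those of the Dppa3-low cells 94735526 and 85478944. Genes that chose the classes were left out before adjustment. Both classes of a pool come from the same set of embryos, though the embryo of each cell is not known, so the pool was a block. Differences between R1 and R2 in the classes had a correlation of 0.33 over 16857 genes. The test was tried on simulated data for this comparison (16323 genes, 200 changed). There, 39.6% of 2-fold and 56.2% of 4-fold changes were called, and 5.15% of calls were false. The simulated sums held no difference between pools and the same change in each pool. These shares therefore need not hold for the real sums. Named genes are the 10 largest rises and falls whose average log2 CPM reached 5, with equal sign in R1 and R2, and from each list up to 5 called genes and those that define it. For E9.5 the 5 largest are named. DESeq2 1.42.0, other normalization, filters, thresholds, units, thinning and blocks were alternatives. Whether the pools are independent beyond their names was not stated in the labels. With the pool as a block, p-values rest on how the class difference varied between R1 and R2, with variance information that edgeR shares across genes. They do not measure the spread between pools, which the block removes. Only the comparison with E9.5, which had no block, sets its differences against that spread. A few genes that the rule names are not reported here.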

Additional observations from a re-analysis of the deposited data

Results flagged for a closer look

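Values of 92 genes over the 4 pools of Dppa3-positive cells were examined, and in 9 a pool lay far from the other 3, with a gap to the nearest pool beyond the 95% critical value of Dixon's test. Chance marks about 1 in 20. R3 was the pool in 8 of the 9, where Otx2 was at 287 CPM (9.75 to 25.2 CPM in the others), Fgf5 at 359 CPM, Sox17 at 379 CPM, Dkk1 at 326 CPM, Afp at 292 CPM, Foxa2 at 152 CPM, Smad1 at 142.3 CPM and Nodal at 122.4 CPM. In R4 Dnmt1 was at 190 CPM, against 156 to 160 CPM.

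Among cells that the condition on Apoa1 left out, 31 had Dppa3 of at least 50 CPM and 4 or 5 of the 5 germ cell markers, 20 of 83 in R3 and 11 of 19 in R4. None of the 88 cells with high Apoa1 and Dppa3 below 50 CPM had as many (0%, upper limit 4.11%). Of these 88 cells, 81 were of R1, 6 of R2 and 1 of R3. Pool and Dppa3 class can therefore hardly be told apart here, and the limit covers counting error only.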

How the results depend on the processing

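The counts of genes against the Dppa3-low cells (520 higher, 1.85% of genes tested lower) stayed within 1.5 times with RLE size factors, without the filter, with at least 5 or 20 cells a pool, and with the library as unit and block. They were 238 and 0.747% at an adjusted p of 0.01, 251 and 0.599% with at least 2-fold, 1456 and 6.13% with DESeq2, 278 and 1.01% with the library as unit and the pool as a replicate block, 786 and 3.37% with a Tfap2c and a Prdm14 UMI in each cell, 81 and 0.366% against cells without any Dppa3 UMI, and 92 and 0.213% in FACSrandom cells alone. Without the Prdm1 condition, with Dppa3 of at least 100 CPM and with cells thinned to 50000 UMIs, 2.95%, 3.89% and 4.78% were lower. Without the replicate block the counts were 0 higher and 0% lower in edgeR, also with the pools of all 4 replicates and with R1, R2 and R4 (1588, 1082 and 1633 genes at an unadjusted p below 0.05). Leaving out R1 or R2 leaves no residual degree of freedom, so no count was made; the log2 fold change of 18 and 14 of 90 named genes then moved by more than the SD of both pools.

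Against Hand1-positive and Hand1-low cells (29 genes and 0.932% of genes called) DESeq2 called 411 and 887, no filter 479 and 831, and no replicate block 0 and 5. A Hand1 threshold of 20 CPM could not be fitted, since 1 pool was left. Against E9.5 (343) DESeq2 called 2239, no filter 1336, thinned cells 745, and cells with a Tfap2c and a Prdm14 UMI 215; leaving out a pool gave 0 to 955. The pool numbers of E7.5 and E9.5 mark different embryos, with a correlation of 0.02 between R1 and R2, and the number as a replicate block gave 2968.

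Of 1132 values of the 63 called named genes under alternatives, 294 kept their direction but no longer passed the threshold. The 1132 include ratios from R1 or R2 alone, which have no test and could not be among the 294. The direction turned for Top2a against cells without a Dppa3 UMI (-0.00593), Lef1 in FACSrandom cells (0.00081) and Dkk1 with all 4 pools (0.33); causes were not tested. Shares of Dppa3-positive cells with a UMI moved by more than the SD for Prdm14 (85.5%) and Dnd1 (96.1%) without thinning, and for Dnd1 (66.7%) and Kit (65.8%) at 20000 UMIs. The number of Dppa3-positive cells was 184, 82 and 63 at Dppa3 thresholds of 20, 100 and 200 CPM, 95 with at least 5 Prdm1 UMIs, 38 with Apoa1 below 100 CPM and 211 without that condition. The alternatives with FACSrandom cells, with the library as block, with further pools and with marker UMIs against E9.5 were chosen after seeing the data. In the simulation of the comparison with Dppa3-low cells, at this depth and number of pools but without differences between pools, 39.6% of 2-fold changes were called.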
